A study of Mus musculus with 12 samples.

Results

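Respiratory complexes II to V are the enzymes of the inner mitochondrial membrane that pass electrons from succinate and ubiquinone to oxygen and then use the proton gradient to make ATP. Their nuclear genes were chosen here by symbol: Sdha to Sdhd for complex II, symbols starting Uqcr together with Cyc1 and Cycs for complex III and its electron carrier cytochrome c, symbols starting Cox4 to Cox8 for complex IV, and symbols starting Atp5 for complex V. The rule found 66 probes of 48 genes among 46114 probes and 17658 named genes, with 4 genes in complex II, 10 in complex III and cytochrome c, 17 in complex IV and 17 in complex V. Each gene was read from its brightest probe by the mean over all arrays. RNA came from the atria of 12 male mice and was measured on Illumina Sentrix Mouse-6 beadchips, which read each transcript with an oligonucleotide on beads. The 6 Tbx3 animals (Cre4-CT) carried the Nppa-Cre4 transgene, which puts Cre recombinase under a promoter active in atrial muscle, and the CT construct, from which Cre activates the T-box repressor Tbx3. The 6 Control animals (Cre4) carried the Nppa-Cre4 transgene and no CT construct, so both groups share Cre. No group had CT without Cre, and what the construct alone does cannot be told apart from what Tbx3 does. Each array is labelled as a biological replicate, and no age is stated.

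Heart muscle makes most of its ATP by oxidative phosphorylation, and the proteins of these complexes are among its most abundant. Complex II, succinate dehydrogenase, also works in the citrate cycle. Complex III hands electrons to cytochrome c, complex IV (cytochrome c oxidase) reduces oxygen, and complex V (ATP synthase) turns the returning protons into ATP. In complex IV, some small subunits exist in a form typical of heart and skeletal muscle and in a form found in most tissues. Cox6a2, Cox7a1 and Cox8b are the muscle forms, and Cox6a1, Cox7a2 and Cox8a their ubiquitous counterparts.

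The genes did not all move one way. Most had small negative log2 changes in the Tbx3 atria, 41 of 48 (85.4%), with a median of -0.19, while 50.9% of all 17658 genes had a negative change and their median was -0.0032. The share was 50.5% among genes above the 90th percentile of brightness. In the fit across all probes (limma, Benjamini-Hochberg adjustment over all probes, threshold 0.05), 4 of the 48 fell, namely Cox8b, Atp5k, Atp5h and Uqcr11. The other calls were rises of 2 ubiquitous complex IV forms, Cox6a1 and Cox8a, and 42 genes did not pass. In the same fit 2.98% of all genes were called lower and 2.97% higher, and 3.45% of all probes were called either way. Most of the 48 are bright, and among genes above the 90th percentile of brightness 8.74% were called lower and 7.99% higher. In this setting the 8.33% of these genes called lower is near that background. With the deposited values left without further normalization the calls were 12 lower and 1 higher. Then 2.87% of all genes were called lower, a share that is not restricted to bright genes. With only probes above the median brightness kept, 11 of 45 were called lower, against 5.32% of all genes tested there. Whether the share lies near its background thus depends on the setting.

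Levels are log2 probe values, with the deposited table read as natural logs, an inference from its range. Read in base 2 instead, the changes would shrink by a factor of 0.693 and keep their p-values. Brightness is given as the percentile of a probe's mean among all probes. It stood above the 90th percentile for 40 of the 48 genes. The remaining 8 were Sdha, Uqcrfs1, Uqcrq, Cox4i2, Cox6b2, Cox7b2, Cox8c and Atp5md, from the 2.71st percentile (Cox8c) to the 83.3rd (Uqcrq), and none of them was called.

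Arrays correlated at 0.970 to 0.980 within groups and 0.963 to 0.976 between groups. Control array 4 had the widest interquartile range of the deposited values, 0.65 against 0.54 to 0.60 in the others, and Control array 4 and Tbx3 array 6 had among the lowest mean correlations with their own group (0.971 and 0.974). Without both, 2 of the 48 genes were called lower (Atp5k and Cox8b) and 1 higher (Cox6a1), while 2.63% of all genes were called lower. The brighter probe of Tbx3 itself was lower in the arrays labelled Tbx3, the opposite of the labelled overexpression (log2 change -0.42, limma adjusted p = 0.0263, all 6 below the Control mean), and the dimmer one had 0.02 (limma adjusted p = 0.982). Where these probes lie relative to the transgene is not known, so they do not check the labels, and each direction given here rests on the labels alone. The atrial myosin light chain genes Myl4 and Myl7 and Nppa were bright, all at or above the 99.8th percentile. Myl4 had the same value, 15.40, in all 6 Control arrays and in Tbx3 array 4. Quantile normalization, used here, gives probes of the same rank the same value in every array, so this is not a measured identity. No ventricular genes were set beside Myl4, Myl7 and Nppa, so their levels do not test the atrial identity given by the labels. In tissue RNA, fewer cells of a type and less RNA per cell cannot be told apart.

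**Figure D1:**
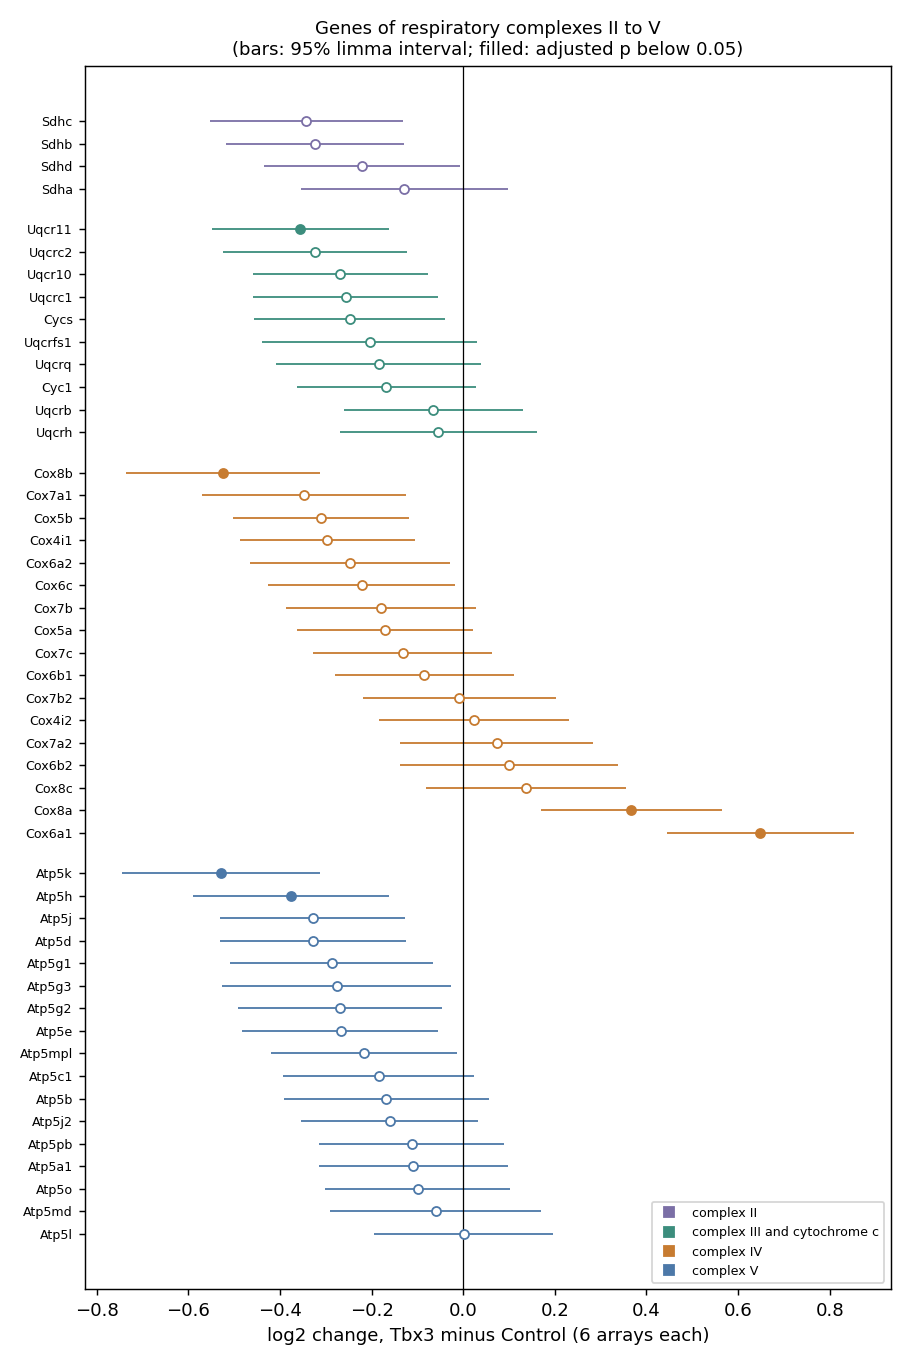
Log2 change (Tbx3 minus Control, x axis) of the 48 genes, grouped by complex. Points are estimates from 6 arrays a group, bars are 95% intervals of the limma fit, and filled points passed an adjusted p of 0.05. Most points lie left of 0, and Cox6a1 (0.65) and Cox8a (0.37) stand on the right.

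Among the paired forms of complex IV subunits, the ubiquitous Cox6a1 and Cox8a rose and the muscle form Cox8b fell. Promoter sequence is shown for the called genes of these pairs because they moved in opposite directions. The sequences are the 250 bases before the annotated start, from RefSeq (GRCm38.p6), 5′ to 3′ on the gene's strand, with capitals for any match to 5 motifs known from mitochondrial, muscle or T-box promoters.
Cox6a1 (chr5:115348959-115349208, minus strand): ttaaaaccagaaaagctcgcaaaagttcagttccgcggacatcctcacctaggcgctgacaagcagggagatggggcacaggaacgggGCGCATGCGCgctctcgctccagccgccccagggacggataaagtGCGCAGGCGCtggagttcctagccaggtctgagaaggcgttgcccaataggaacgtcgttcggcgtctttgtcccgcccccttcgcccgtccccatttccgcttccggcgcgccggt
Cox8a (chr19:7217617-7217866, minus strand): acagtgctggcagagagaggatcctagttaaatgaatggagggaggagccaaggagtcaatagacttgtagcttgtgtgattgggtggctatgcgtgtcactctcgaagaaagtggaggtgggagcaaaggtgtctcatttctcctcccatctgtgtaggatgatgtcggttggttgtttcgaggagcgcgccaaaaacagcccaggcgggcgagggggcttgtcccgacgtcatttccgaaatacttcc
Cox8b (chr7:140900447-140900696, minus strand): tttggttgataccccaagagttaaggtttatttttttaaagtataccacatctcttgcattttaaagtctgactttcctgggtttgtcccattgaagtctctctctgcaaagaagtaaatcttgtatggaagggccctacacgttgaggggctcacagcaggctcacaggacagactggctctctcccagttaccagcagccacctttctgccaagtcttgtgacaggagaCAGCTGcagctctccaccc
The motifs, searched on both strands, were the NRF-1 palindrome, the ETS site bound by NRF-2/GABP (CCGGAAGT), the ERR site (TNAAGGTCA), an E-box (CAGCTG) and a T-box site (AGGTGTGA), and no capitals here belong to more than 1 of them. Cox6a1 held the NRF-1 letters at 2 places, beginning at -162 and -117 (bases counted back from the start), Cox8b held an E-box beginning at -19, and Cox8a held none of the 5. Of 32851 promoter windows of this length in the table, 3.74% held the NRF-1 letters and 13.0% the E-box. Promoters were matched for 36 of the 48 genes, and 7 of these held NRF-1 letters, 3 the ETS letters, 1 the ERR letters, 2 the E-box and 0 the T-box letters. Those last 4 motifs were found in 2.88%, 1.14%, 13.0% and 1.12% of all windows. The 7 genes with NRF-1 letters were Cox6a1, called higher, Atp5k and Atp5h, called lower, and the uncalled Atp5c1, Atp5g2, Sdha and Sdhd. Whether the letters bear on the direction of change was not tested. A match of letters is a description of the window and not a site.

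Cox6a1, the ubiquitous form of subunit 6A, had the largest rise of the 48. Its levels ran from 10.48 through a median of 10.66 to 10.87 in the 6 Control arrays and from 11.17 through 11.35 to 11.53 in the 6 Tbx3 arrays. Every Tbx3 array lay above every Control array. The means were 10.70 ± 0.15 and 11.35 ± 0.13 (SD, n = 6 each), a 1.57-fold rise (log2 change 0.65, SE 0.10, limma adjusted p = 8.97e-05). A further Cox6a1 probe of like brightness gave a log2 change of 0.67 (SE 0.09, limma adjusted p = 2.54e-05), again with no overlap of the groups. The same separation was found for 1.89% of all genes and 5.22% of those above the 90th percentile of brightness.

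Cox6a2, the muscle form of the same subunit, did not pass. Its Control arrays ran from 13.10 through a median of 13.56 to 13.82 and its Tbx3 arrays from 13.20 through 13.29 to 13.33. All Tbx3 arrays lay within the Control range and below the Control mean, with a log2 change of -0.25 (SE 0.11, 95% interval -0.47 to -0.03, limma adjusted p = 0.314). The Tbx3 arrays were close together, with an SD of 0.05 against 0.25 in Control.

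Cox8a, the ubiquitous form of subunit 8, ran from 10.74 through a median of 11.03 to 11.15 in Control and from 11.28 through 11.36 to 11.47 in Tbx3. The groups did not overlap. The means were 11.00 ± 0.15 and 11.37 ± 0.07 (SD, n = 6 each), a 1.29-fold rise (log2 change 0.37, SE 0.10, limma adjusted p = 0.0262). Without further normalization the call was lost (log2 change 0.31, limma adjusted p = 0.107). It was also lost on leaving out Control 3, Control 4, Tbx3 1, Tbx3 4 or Tbx3 5, 1 at a time (limma adjusted p up to 0.0826).

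Cox8b, the muscle form of subunit 8, had Control levels from 12.35 through a median of 12.74 to 12.84 and Tbx3 levels from 12.01 through 12.15 to 12.40. The overlap came from Control array 2 at 12.35 and Tbx3 array 2 at 12.40. The other 5 Tbx3 arrays lay below every Control array. The means were 12.69 ± 0.18 and 12.16 ± 0.15 (SD, n = 6 each), a 1.44-fold fall (log2 change -0.52, SE 0.10, limma adjusted p = 0.00199). This fall and the Cox6a1 rise were called whichever single array was left out.

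For subunit 7A neither form passed in the main fit. Cox7a1, the muscle form, ran from 13.31 through a median of 13.49 to 13.90 in Control and from 13.02 through 13.17 to 13.49 in Tbx3, with 5 Tbx3 arrays below every Control array and Tbx3 array 2 inside the Control range. Its log2 change was -0.35 (SE 0.11, limma adjusted p = 0.0828). That adjusted limma p was 0.0162 with the values as deposited and 0.0324 without Tbx3 array 2. Cox7a2, the ubiquitous form, ran from 9.63 through 9.87 to 10.08 in Control and from 9.75 through 9.92 to 10.07 in Tbx3. Its log2 change was 0.07 (95% interval -0.14 to 0.28, limma adjusted p = 0.894), an interval that leaves room for a change of either sign.

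**Figure D2:**
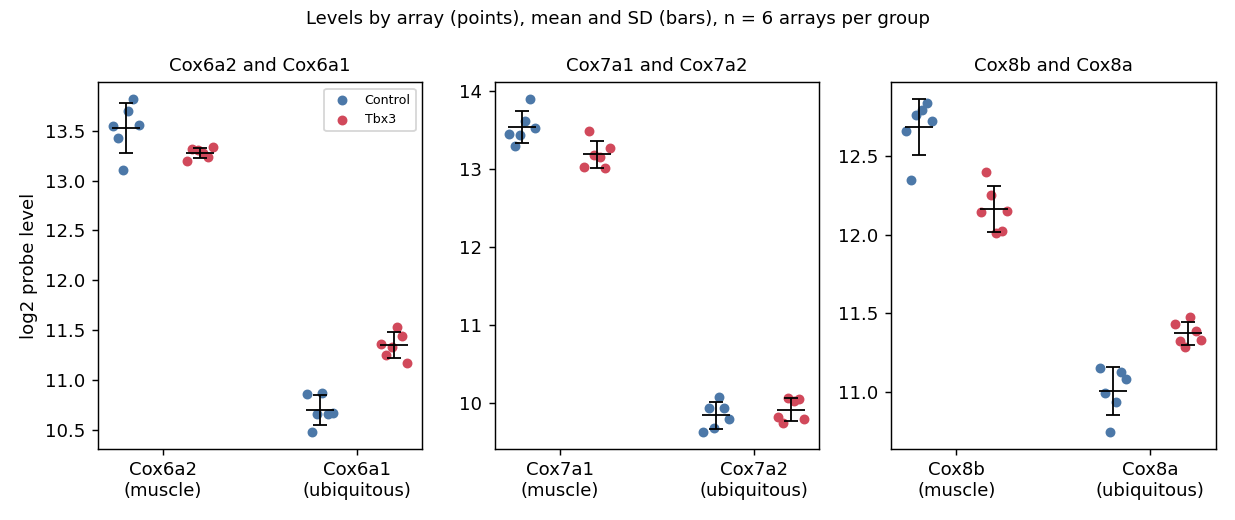
Log2 probe level (y axis) of the muscle and the ubiquitous form of 3 complex IV subunits in each array, with group mean and SD (n = 6). Levels of different probes are not comparable. Cox6a1 and Cox8a are higher in all Tbx3 arrays than in all Control arrays, and Cox8b is lower in 5 of 6.

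Probe sequences were not used here, so whether a probe of one form also reads the other was not tested, and this bears on every isoform value. The shift between forms was tested as the difference, within each array, of the muscle probe minus the ubiquitous probe, with an exact two-sided permutation test over the 924 ways to split the 12 arrays and adjustment over the 3 pairs. For subunit 6A this difference ran from 2.44 through a median of 2.86 to 3.16 in Control and from 1.74 through 1.91 to 2.16 in Tbx3, with no overlap. It was lower in Tbx3 by a log2 change of -0.90 (SE 0.12, exact permutation p = 0.00217, adjusted 0.00325), or 1.86-fold. Most of this came from the Cox6a1 rise of 0.65, beside an uncalled -0.25 in Cox6a2. For subunit 8 the difference ran from 1.36 through 1.68 to 2.02 in Control and from 0.54 through 0.77 to 1.08 in Tbx3, again with no overlap. The change was -0.89 (SE 0.13, exact permutation p = 0.00217, adjusted 0.00325), or 1.85-fold. This raw p is the smallest the test can give with 6 arrays in each group.

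For subunit 7A the difference ran from 3.36 through a median of 3.75 to 3.97 in Control and from 2.97 through 3.18 to 3.74 in Tbx3, with overlapping groups. The change was -0.42 (SE 0.14, exact permutation p = 0.0217, adjusted 0.0217). It was -0.75 among odd-numbered and -0.09 among even-numbered arrays, where 3 arrays against 3 allow no test at this threshold. With the replicate number as a block the adjusted exact permutation p was 0.0938. Same-numbered arrays shared only a number, so the block and the odd and even split are arbitrary divisions of the arrays. The changes for subunits 6A and 8 were -0.89 and -0.97 among odd numbers and -0.90 and -0.81 among even numbers.

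**Figure D3:**
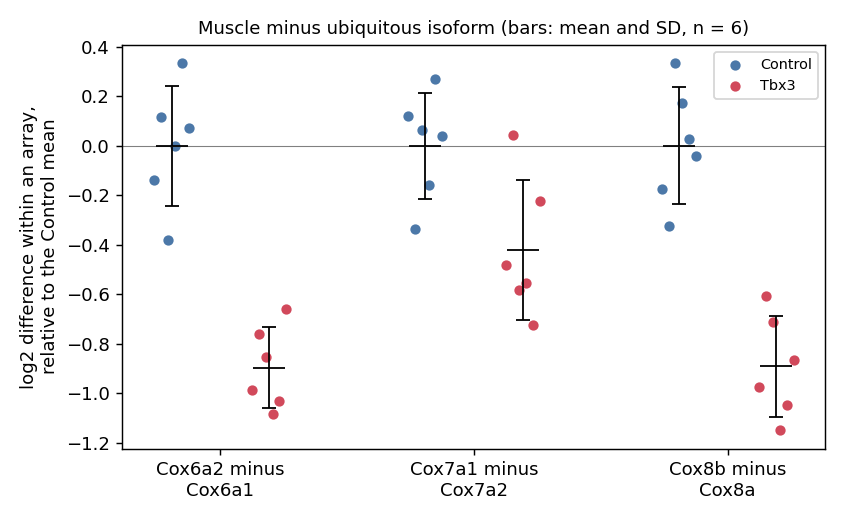
Difference of log2 level, muscle minus ubiquitous form, within each array (y axis, relative to the Control mean of the pair), with group mean and SD (n = 6). The groups stand apart for Cox6a2 minus Cox6a1 (-0.90) and Cox8b minus Cox8a (-0.89) and overlap for Cox7a1 minus Cox7a2 (-0.42).

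Outside the muscle and ubiquitous pairs, complex IV subunits with no second form among the 48, or in their common form, had negative changes throughout. These 7 genes were Cox4i1, Cox5a, Cox5b, Cox6b1, Cox6c, Cox7b and Cox7c. Their log2 changes ran from -0.31 to -0.09, with a median of -0.18 and 0 calls. At an unadjusted limma p under 0.05, 3 of the 7 were lower, beside 1567 of all 17658 genes. Among the 3431 genes above the 90th percentile of brightness, 700 were lower at that p. Cox5b and Cox4i1, which encode subunits 5B and the common form of subunit 4, had every Tbx3 array below every Control array, with log2 changes of -0.31 and -0.30 (limma adjusted p of 0.0652 and 0.0832). The muscle forms Cox6a2 and Cox7a1, also uncalled, had changes of like size, -0.25 and -0.35. The forms known from other tissues, Cox4i2 of lung and Cox6b2, Cox7b2 and Cox8c of testis, were dim, from the 2.71st to the 76.6th percentile. Their log2 changes lay between -0.01 and 0.14 with 0 calls and 0 at an unadjusted limma p under 0.05. As a whole complex IV had 11 negative and 6 positive changes and a median of -0.13.

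In complex V, 2 of 17 genes fell (11.8%), 0 rose, and 16 of 17 changes were negative with a median of -0.22. The shares called lower were 2.98% of all genes and 8.74% of those above the 90th percentile of brightness. Atp5k, subunit e of the membrane part of the enzyme, ran from 11.83 through a median of 12.20 to 12.39 in Control and from 11.45 through 11.64 to 11.76 in Tbx3. All Tbx3 arrays lay below all Control arrays, where 2.15% of all genes and 6.91% of those above the 90th percentile of brightness did so. The means were 12.16 ± 0.20 and 11.63 ± 0.14 (SD, n = 6 each), a 1.44-fold fall (log2 change -0.53, SE 0.11, limma adjusted p = 0.00227), called whichever single array was left out. A further, dimmer Atp5k probe gave -0.34 (limma adjusted p = 0.0874).

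Atp5h, subunit d of the peripheral stalk, ran from 13.72 through a median of 13.93 to 14.30 in Control and from 13.53 through 13.62 to 13.72 in Tbx3. The groups touched at 13.72, where Control array 3 and Tbx3 array 2 stood. The log2 change was -0.38 (SE 0.10, limma adjusted p = 0.039), a 1.30-fold fall. Leaving out 1 array ended the call for 9 of the 12, the exceptions being Control 2, Control 3 and Tbx3 2 (limma adjusted p up to 0.117). The replicate number as a block, an arbitrary pairing of arrays, also ended it (limma adjusted p = 0.056).

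In the catalytic head of the enzyme no gene passed. Atp5a1 and Atp5b, the alpha and beta subunits, had log2 changes of -0.11 and -0.17 (limma adjusted p of 0.803 and 0.636), and Atp5c1, the central stalk's gamma subunit, had -0.18. Atp5d and Atp5e, the delta and epsilon subunits of the same stalk, had -0.33 and -0.27 (limma adjusted p of 0.0689 and 0.223). Atp5g1, Atp5g2 and Atp5g3 encode the same subunit c of the rotor ring, and their changes of -0.29, -0.27 and -0.28 lay close together (limma adjusted p of 0.194, 0.253 and 0.334). Atp5j, coupling factor 6, had -0.33 with no overlap of the groups (limma adjusted p = 0.0641). Atp5o, Atp5j2, Atp5mpl and Atp5md had changes from -0.22 to -0.06, and Atp5l, subunit g, had 0.0008 (95% interval -0.19 to 0.20). For Atp5pb, subunit b of the stalk, 3 probes gave -0.11, -0.38 and -0.29, from the brightest to the dimmest, and none was called.

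In complex III and cytochrome c, 1 of 10 genes fell (10%) and all 10 changes were negative, with a median of -0.23. As background, 2.98% of all genes and 8.74% of those above the 90th percentile of brightness were called lower. Uqcr11, a small subunit, ran from 12.03 through a median of 12.20 to 12.27 in Control and from 11.74 through 11.79 to 12.02 in Tbx3. The groups did not overlap, though Tbx3 array 2 came within 0.01 of the lowest Control array. The log2 change was -0.36 (SE 0.09, limma adjusted p = 0.0267), a 1.28-fold fall. Leaving out Control 1, 5 or 6, or Tbx3 1, 3, 5 or 6, ended the call (limma adjusted p up to 0.0679).

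Uqcrc2 and Uqcr10, a core protein and a small subunit, also had every Tbx3 array below every Control array, with log2 changes of -0.32 and -0.27 (limma adjusted p of 0.068 and 0.143). The other core protein gene, Uqcrc1, had -0.26. The genes of the electron-carrying proteins, Cyc1 (cytochrome c1), Uqcrfs1 (the Rieske iron-sulphur protein) and Cycs (cytochrome c), had -0.17, -0.20 and -0.25. Uqcrq had -0.18, and Uqcrb and Uqcrh had the smallest changes, -0.07 and -0.05 (limma adjusted p of 0.902 and 0.93).

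In complex II 0 of 4 genes passed in limma, and all 4 changes were negative with a median of -0.27. At an unadjusted limma p under 0.05, 3 of the 4 were lower, beside 1567 of all 17658 genes. Among the 3431 genes above the 90th percentile of brightness, 700 were lower at that p. Sdhb, the iron-sulphur subunit, had the smallest p. It ran from 11.39 through a median of 11.64 to 11.69 in Control and from 11.16 through 11.25 to 11.47 in Tbx3, and 5 of 6 Tbx3 arrays lay below every Control array. Its log2 change was -0.32 (SE 0.09, limma adjusted p = 0.055), with -0.34 for its dimmer probe. The adjusted limma p of Sdhb was 0.0215 with the values as deposited, 0.031 without Control array 3 and 0.0343 without Tbx3 array 2. The membrane anchors Sdhc and Sdhd had changes of -0.34 and -0.22. Sdha, the flavoprotein, had -0.13, read from a probe at the 35.8th percentile.

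Averaged over the 48 genes, the Control arrays stood at 11.08 to 11.26 and the Tbx3 arrays at 10.94 to 11.05, with no overlap. In the Tbx3 arrays 36 to 42 of the 48 genes lay below the Control median, against 11 to 36 in the Control arrays, where Control array 4 had 11 and Control arrays 2 and 3 had 36 and 34. By complex, the averages did not overlap for complex III with cytochrome c (11.07 to 11.24 in Control, 10.88 to 11.06 in Tbx3) and complex V (11.69 to 11.89 and 11.50 to 11.62). They overlapped for complex II (9.89 to 10.04 and 9.57 to 9.91) and complex IV (10.72 to 10.94 and 10.71 to 10.80). Across the 48 genes, 7 had all Tbx3 arrays below all Control arrays (14.6%, against 2.15% of all genes and 6.91% of those above the 90th percentile of brightness) and 2 had them all above (1.89% of all genes and 5.22% of the bright ones). The 7 were Uqcr11, Uqcrc2, Uqcr10, Cox5b, Cox4i1, Atp5k and Atp5j.

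**Figure D4:**
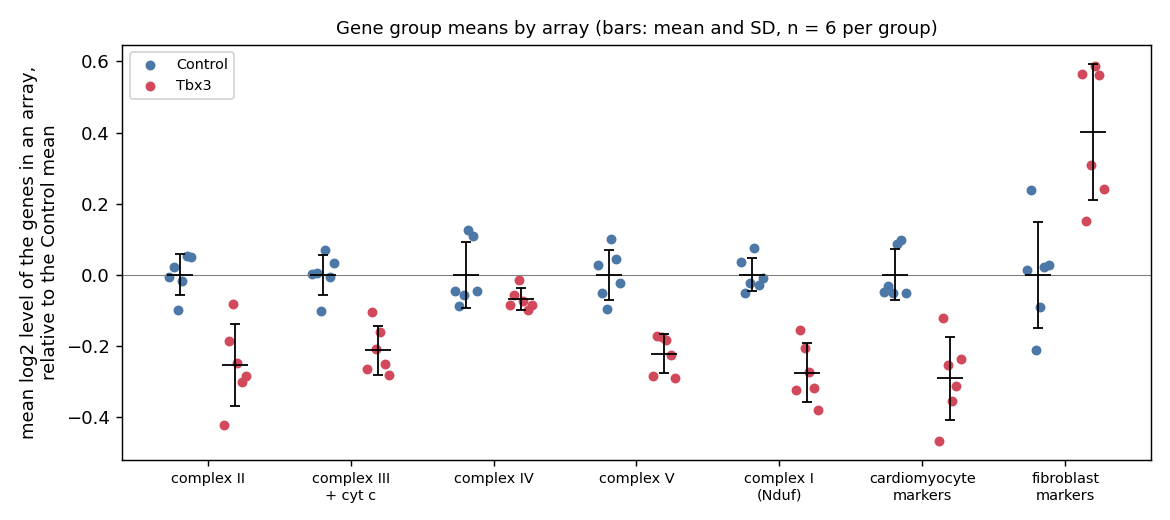
Mean log2 level over the genes of a group in each array (y axis, relative to the group's Control mean), with mean and SD over 6 arrays. Complexes III and V are lower in all Tbx3 arrays, complex IV overlaps, and the cardiomyocyte and fibroblast marker means moved in opposite directions in the same arrays.

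Most other genes of the pathway also had negative changes, 32 of 36 assembly factors and 17 of 19 partners, against 50.9% of all genes. Of 36 assembly factors of complexes II to V, 6 fell and 0 rose, with a median log2 change of -0.14. Fmc1, needed for ATP synthase assembly in yeast, fell by 0.52 on the log2 scale (limma adjusted p = 0.000789), Higd2a by 0.48 (limma adjusted p = 0.00266), the haem A synthase Cox15 by 0.46 (limma adjusted p = 0.00414) and Bcs1l, which inserts the Rieske protein into complex III, by 0.49 (limma adjusted p = 0.00416). Of 19 partners that the symbol rule does not take, such as ubiquinone synthesis and carrier genes, 1 fell and 1 rose, with a median of -0.17. Coq9, of ubiquinone synthesis, fell by 0.59 (limma adjusted p = 0.00019). Slc25a5, the ADP/ATP carrier found in most tissues, rose by 0.40 (SE 0.10, limma adjusted p = 0.0145), with every Tbx3 array above every Control array. Slc25a4, the carrier form of heart and skeletal muscle, had -0.40 (SE 0.14, limma adjusted p = 0.169) from a dimmer probe, and was named after its value was seen. Among 40 genes with symbols starting Nduf, mostly subunits of complex I, 13 fell and 0 rose with a median of -0.29. Among 77 mitochondrial ribosomal protein genes 20 fell and 0 rose with a median of -0.23. The shares called lower were 32.5% (Nduf), 26% (mitochondrial ribosome), 16.7% (assembly factors) and 5.26% (partners). The background was 2.98% of all genes and 8.74% of those above the 90th percentile of brightness.

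Marker genes of several cell types moved in the same arrays, and their part in these results was not tested. Beside the counts below, 2.98% of all genes were called lower and 2.97% higher. Above the 90th percentile of brightness the shares were 8.74% and 7.99%. Of 19 cardiomyocyte markers 8 fell and 0 rose, with a median of -0.26, and their mean ran from 12.76 to 12.91 in Control and from 12.35 to 12.69 in Tbx3. Nppa fell by 1.35, Sln (sarcolipin) by 0.80 and Ckmt2, the mitochondrial creatine kinase, by 0.44 (limma adjusted p of 1.2e-08, 4.07e-05 and 0.00597). Actc1 and Tnnt2, named after their values were seen, had changes of -0.03 and 0.08. In all, 4 of the 19 had positive changes, up to 0.29 for Mybpc3 (limma adjusted p = 0.185). Of 16 fibroblast markers 5 rose and 0 fell, with a median of 0.29, and their mean ran from 8.86 to 9.31 in Control and from 9.22 to 9.66 in Tbx3. Dpt, S100a4 and Lum rose by 0.88, 1.02 and 0.83 (limma adjusted p of 1.85e-05, 4.59e-05 and 8.44e-05). The other 11 fibroblast markers did not pass. Negative changes were found for 2 of the 16, Col1a2 at -0.34 and Ddr2 at -0.05 (limma adjusted p of 0.777 and 0.945). Of 8 erythroid markers 1 rose, Slc4a1 at 0.93 (limma adjusted p = 0.0484), with a median of 0.64 and means from 8.41 to 9.97 in Control and from 9.64 to 10.52 in Tbx3.

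The other lists moved less evenly. Of 7 smooth muscle markers 3 rose and 2 fell, among them Tagln, Acta2 and Rgs5. This list had a median of 0.06 and means from 8.03 to 8.20 in Control and from 8.10 to 8.45 in Tbx3. Of 9 endothelial markers 1 fell, Esam (median 0.04, means 8.56 to 8.72 and 8.54 to 8.69). Of 8 leukocyte markers 0 passed in limma (median 0.03, means 6.15 to 6.60 and 6.09 to 6.77). At an unadjusted limma p under 0.05, 1 leukocyte marker was lower and 2 were higher, beside 1567 and 1503 of all 17658 genes. Of 12 skeletal muscle markers 4 fell (median -0.12, means 6.33 to 6.67 and 5.75 to 5.95), among them Atp2a1, Tnni2 and Ckm at -1.72, -3.28 and -0.97. Their probes lay at the 81.7th, 89.0th and 96.8th percentiles. Whether the RNA of the genes that fell came from skeletal muscle or from heart muscle was not tested. The other 8 did not pass, and 4 of them had positive changes, up to 0.17 for Myh4. Those 8 were read from dim probes, from the 3.47th percentile (Myh4) to the 54.1st (Tnnt3). Since skeletal muscle also uses the muscle forms of complex IV, this list is given beside them, and its part in their changes was not tested. Of 7 adipocyte markers 1 rose, Cidea at 1.86 (limma adjusted p = 2.3e-11), with a median of 0.02 and means from 5.47 to 5.71 and from 5.75 to 5.92. The other fat markers did not pass, and of the 7 changes 3 were negative and 4 positive. Fabp4 had -0.35 (limma adjusted p = 0.0714), with every Tbx3 array below every Control array, as in 2.15% of all genes. Adipoq and Ucp1 had 0.07 and 0.02 (limma adjusted p of 0.927 and 0.987). Fabp4, Adipoq and Ucp1 were also chosen after their values were seen, and the Ucp1 probe lay at the 11.7th percentile.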

How the data were processed

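The authors deposited a table of natural log values per probe and array, a base inferred here because the values run from 2.63 to 10.81, which on base e reaches 49513, under the 16-bit ceiling of 65535. Their background step and normalization are not stated. Per the labels, total RNA was column-extracted, amplified and biotin-labelled, and the arrays of a group are biological replicates, with groups and numbers taken from the titles. Of 46133 rows, 10 were empty and 9 repeated another row. These values, over 0.693 to give log2, were quantile normalized, since interquartile ranges differed by 20.4%. Tbx3 minus Control was fitted in limma 3.58.1 (R 4.3.3, 28.4 total degrees of freedom) over 46114 probes. No detection values were used, and precision rests on 6 arrays a group. The fit was tested on simulated data. Among the 48 genes, 32 have 1 probe. Promoters were read with Python 3.11.15.

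Members and lists were chosen with earlier results of these data known. Values by array were given for genes past the threshold, the 6 isoform genes and the smallest p per complex, and list genes were named by smallest p. Alternatives were other scalings, filters on dim probes, the mean of probes, array weights, an intensity trend with the robust option, replicate number or its parity in the fit, base 2, left-out arrays and an adjusted p of 0.01.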

Additional observations from a re-analysis of the deposited data

Results flagged for a closer look

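In 6 of 112 gene, pair or group averages by condition, 1 array stood apart from the other 5 of its group by a gap that was large against the group's range, where chance gives about 5%. Among Control arrays, array 2 was lowest for Cox8b (12.35, with the next at 12.66), array 3 for Sdhb (11.39, with the next at 11.60) and array 1 for Sdhc (11.61, with the next at 11.83). Among Tbx3 arrays, array 1 was lowest for Atp5b (13.75, with the next at 14.04), array 6 for Uqcrb (11.72, with the next at 12.03) and array 2 highest for Uqcr11 (12.02, with the next at 11.84). The 3 low Control values and the high Tbx3 value of Uqcr11 lie on the side that makes the change smaller. The low Tbx3 values of Atp5b and Uqcrb lie on the side that makes it larger.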

How the results depend on the processing

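Limma called 4 of the 48 genes lower and 2 higher. The count lower was 12 with the values as deposited (2.87% of all genes tested there), 11 with median centring (2.73%), 8 with gene means over probes (2.27%) and 13 with an intensity trend and the robust option (3.47%), against 2.98% in the main setting. Filters that kept the upper 50% or 25% of probes by brightness gave 11 of 45 genes (5.32% of all genes) and 13 of 43 (9.92%). The count was 2 without Control 4 and Tbx3 6 together (2.63%) and 2 at an adjusted p of 0.01 (1.72%). The filters tested fewer probes, and the cause of the other shifts was not tested. The count higher was 1 with the values as deposited, with median centring, without Control 4 and Tbx3 6 together and at an adjusted p of 0.01. Cox6a1, Cox8b and Atp5k were called at 0.05 in each of these and with each single array left out. With 3 arrays against 3, Atp5k was not called among odd numbers (limma adjusted p = 0.128), and none of these genes was among even numbers (limma adjusted p of 0.0672 for Cox6a1, 0.433 for Cox8b and 0.12 for Atp5k). Leaving out each array gave 2 to 7 lower and 1 to 2 higher. The count was 2 lower without Control 5 or 6 or Tbx3 1, 5 or 6, and 7 without Tbx3 2. Under the same left-out arrays the median change of the 48 ran from -0.23 to -0.19, of complex II from -0.30 to -0.25, of complex III with cytochrome c from -0.26 to -0.20, of complex IV from -0.16 to -0.11 and of complex V from -0.26 to -0.18. The isoform differences ran from -0.97 to -0.83 for subunit 6A, from -0.51 to -0.36 for 7A and from -0.96 to -0.83 for 8. For 7A the change was -0.75 among odd and -0.093 among even numbers. Read as base 2, the median of complex III with cytochrome c was -0.16. No called change turned sign. The uncalled Cox7a2 change of 0.07 was 0.23 among odd and -0.08 among even numbers. Same-numbered arrays shared only a number: correlations of their deviations ran from -0.02 to 0.07. With the replicate block 3 genes were called lower and 2 higher, and the 7A isoform change of -0.42 had an adjusted exact permutation p of 0.0938. No detection values say which of the 8 dimmer genes lie above background.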
